A study of Mus musculus with 238 samples.

Results

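The respiratory chain was followed through the brain and liver of old mice by 98 of its genes, out of 21076 rows in the count table. Members were chosen by gene name: subunits of NADH dehydrogenase (complex I, Nduf names), succinate dehydrogenase (complex II, Sdha to Sdhd), the cytochrome bc1 complex (complex III, Uqcr names), cytochrome c oxidase (complex IV, Cox4 to Cox8 names) and ATP synthase (complex V, Atp5 names), and the mt-Nd, mt-Co, mt-Cytb and mt-Atp genes of the mitochondrial genome. Of 106 rows with such names, 98 reached a mean of 5 CPM (counts per 1000000 counts of a library) over all libraries, 86 of them in the nuclear genome and 12 in the mitochondrial genome. The nuclear members held 37 genes of complex I, 8 complex I assembly factors (Ndufaf genes, which the name rule takes in although they build the complex and are not parts of it), 4 of complex II, 8 of complex III, 13 of complex IV (12 Cox genes and Ndufa4, whose product is a subunit of complex IV despite its name) and 16 of complex V. Just inside the threshold were mt-Nd4l with 6.52 CPM and Cox6a2 with 9.13 CPM. Of the 8 rows left out, the nearest was mt-Atp8 with 3.84 CPM, followed by Cox8b with 3.41, Ndufa4l2 with 3.17, Cox7a1 with 3.15, Cox4i2 with 2.42, Cox6b2 with 2.35 and Cox7b2 with 0.639, and Cox8c had no count in any library. A mean over all libraries hides genes of 1 tissue: Cox8b had a median of 25.2 CPM in choroid plexus and mt-Atp8 6.14 in liver.

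The mice were C57BL/6JN and 19 months old. In the diet experiment, females were either kept on dietary restriction (labelled aDR in the brain libraries and DR in the liver libraries of the same animals, 5 mice) or fed ad libitum (AL, 4 mice). In the plasma experiment, males were injected behind the eye with plasma of young mice (YMP, 3 mice) or with phosphate-buffered saline (PBS, 4 mice), so sex and experiment cannot be told apart. Messenger RNA of 15 brain regions was sequenced in both experiments, and liver in the diet experiment, where it served as a check of the diet. The labels name no engineered allele in any group. How long the diet lasted and how much plasma was given are not given in the sources used here. Each mouse gave 1 library per tissue, 238 in all (131 diet brain, 98 plasma brain and 9 liver), and a few are missing: corpus callosum was left with 2 YMP libraries.

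The respiratory chain passes electrons from NADH and succinate to oxygen through complexes I to IV and pumps protons across the inner mitochondrial membrane, and complex V uses the returning protons to make ATP. Complexes I, III, IV and V are mosaics of proteins made from nuclear genes and a small set of core proteins made from the mitochondrial genome, whereas complex II is wholly nuclear. Neurons depend on this ATP supply to restore ion gradients, and hepatocytes are rich in mitochondria. Nuclear members are transcribed one by one under factors such as NRF1, GABPA (also called NRF-2) and YY1, while the mitochondrial members are cut from long transcripts that cover each strand of the circular genome.

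Library totals ranged from 605614 to 32410417 counts with a median of 8444258, and 6 libraries held fewer than 2000000. Hepatocyte markers summed to a median of 89341 CPM in liver, where neuronal markers summed to 14.0 CPM. The choroid plexus libraries were mixed, with plexus epithelium markers at a median of 6929 CPM (146 to 15075) beside 5842 CPM of neuronal markers. Libraries that stood apart were the caudate putamen of aDR mouse 64 and the pons of aDR mouse 67, whose 10 highest genes held 23.4% of the counts, and results that rest on them are given with and without them. In bulk tissue, fewer cells of a type and less RNA per cell cannot be told apart. The libraries are unstranded, so reads of a gene and of a gene on the other strand cannot be told apart. Of the 98 members, 9 share at least 10% of their exon bases with another gene of the table, all on the opposite strand, led by Ndufb6 with Smim27 (39.0%), Ndufa13 with Tssk6 (30.0%) and Uqcrc2 with Pdzd9 (19.8%).

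The promoters of nuclear members often hold sites of NRF1 and GABPA. RefSeq windows on GRCm38.p6, from 250 bases before to 50 bases after each start, were found for 72 of the 86 nuclear members and for 27025 genes in all. The palindrome of the NRF1 site in its general form, GCGC with any 2 bases and a further GCGC behind it, lay in 20 of the 72 members (27.8%) and in 6.997% of all genes, searched on both strands. Its stricter form, with AT as the middle bases and contained in the general one, lay in 7 members (9.72%) and 1.07% of all genes. The GABPA core CCGGAAG was found on either strand in 19 members (26.4%) and 9.93% of all genes, and the YY1 core AAGATGGCG in 8 members (11.1%) and 1.64% of all genes. A match is a description of the sequence only. One promoter per complex shows how these sites sit in the upstream DNA. The letters run 5′ to 3′ on the strand of the gene and end before its first annotated base, and capitals mark matches to the general NRF1 palindrome and to CCGGAAG or its reverse complement. They are Ndufa11 of complex I (chr17:56717592-56717761, plus strand), Sdhd of complex II (chr9:50603850-50604019, minus strand), Uqcr11 of complex III (chr10:80406831-80406991, minus strand), Cox6a1 of complex IV (chr5:115348982-115349128, minus strand) and Atp5h of complex V (chr11:115419963-115420089, minus strand).
Ndufa11: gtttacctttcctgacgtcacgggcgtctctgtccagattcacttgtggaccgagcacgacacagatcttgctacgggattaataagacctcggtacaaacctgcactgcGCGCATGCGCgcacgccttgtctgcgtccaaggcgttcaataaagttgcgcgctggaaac
Sdhd: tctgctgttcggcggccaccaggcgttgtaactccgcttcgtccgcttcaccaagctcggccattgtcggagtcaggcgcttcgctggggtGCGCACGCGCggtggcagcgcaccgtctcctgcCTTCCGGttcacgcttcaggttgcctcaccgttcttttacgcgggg
Uqcr11: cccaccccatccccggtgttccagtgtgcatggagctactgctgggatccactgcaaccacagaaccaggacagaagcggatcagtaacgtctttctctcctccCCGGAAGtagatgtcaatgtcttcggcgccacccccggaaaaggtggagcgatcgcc
Cox6a1: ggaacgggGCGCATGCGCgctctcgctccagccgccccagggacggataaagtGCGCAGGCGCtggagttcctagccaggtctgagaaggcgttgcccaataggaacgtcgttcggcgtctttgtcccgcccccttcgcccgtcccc
Atp5h: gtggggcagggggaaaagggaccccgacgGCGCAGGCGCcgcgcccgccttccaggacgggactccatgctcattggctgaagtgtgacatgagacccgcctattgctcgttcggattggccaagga
Cox6a1 holds 2 palindromes, the first of them the strict form, and Sdhd holds both a palindrome and the GABPA core, while Uqcr11 shows the GABPA core alone in the stretch printed.

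Mitochondrial members took up more of the counts than the nuclear members although they are far fewer. Summed over members, the mean was 23678 CPM for the 12 mitochondrial genes and 18595 CPM for the 86 nuclear genes. Per kilobase of gene model, the median was 989 CPM for mitochondrial and 105 CPM for nuclear members. Nuclear models merge the exons of all isoforms and can be much longer than a transcript, as for Ndufb7 (4522 bases, longest coding transcript 623). This lowers nuclear values per kilobase and limits the comparison of the genomes and of the complexes. Among nuclear members the per-kilobase median was highest for complex IV (194 CPM) and complex III (153 CPM), close to 100 for complexes I (97.5), II (100.5) and V (98.7), and lowest for the assembly factors (15.9). Atp5b, the catalytic beta subunit of ATP synthase, was the nuclear member with the most counts (mean 1677 CPM).

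Levels among the mitochondrial members differed widely. The oxidase subunit mt-Co1 had a mean of 7738 CPM, cytochrome b (mt-Cytb) 5799 CPM and the complex I subunit mt-Nd1 3688 CPM. They were followed by mt-Nd2 (2113 CPM), mt-Nd5 (1922 CPM), mt-Nd4 (1766 CPM) and mt-Nd6 (480 CPM), the sole protein gene on the other strand of the circle (chrM:13552-14070, minus strand). The other 5 genes were low: mt-Nd3 had 121 CPM, mt-Co3 19.0, mt-Atp6 13.8, mt-Co2 12.7 and mt-Nd4l 6.52. These 5 share at least 90% of their 50-base words with annotated pseudogene copies of mitochondrial DNA on chromosome 1 (Gm28438, Gm28437, Gm10925, Gm28661 and Gm10222), whereas mt-Nd4 shares 62.2% and mt-Co1 28.7% with copies there (51.1% with all other genes for mt-Co1) and the other 5 none. Reads from such a stretch fit both places, and how they were counted is not given in the sources used here. The levels of these 5 genes are therefore uncertain, and the part of such reads in the low values was not tested. The same holds for the shared stretches of mt-Nd4 and mt-Co1, so their levels and the mitochondrial sum are uncertain in part. Together the 5 low genes made up 173 CPM, 0.732% of the mitochondrial sum. The case of mt-Nd4l is printed because it shows the identity: its whole coding frame (chrM:9877-10173, plus strand, GRCm38) and Gm10222 (chr1:24612407-24612700, minus strand) had 0 differences over 294 bases. The capitals mark the 3 closing bases of mt-Nd4l, which lie past the annotated end of Gm10222. The chromosome 1 sequence beyond that end was not compared.
mt-Nd4l: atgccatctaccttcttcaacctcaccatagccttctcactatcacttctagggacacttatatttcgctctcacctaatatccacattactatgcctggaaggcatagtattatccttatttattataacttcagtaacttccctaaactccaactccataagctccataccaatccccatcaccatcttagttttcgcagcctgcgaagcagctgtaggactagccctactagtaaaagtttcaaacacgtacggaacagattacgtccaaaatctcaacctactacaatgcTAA
Gm10222: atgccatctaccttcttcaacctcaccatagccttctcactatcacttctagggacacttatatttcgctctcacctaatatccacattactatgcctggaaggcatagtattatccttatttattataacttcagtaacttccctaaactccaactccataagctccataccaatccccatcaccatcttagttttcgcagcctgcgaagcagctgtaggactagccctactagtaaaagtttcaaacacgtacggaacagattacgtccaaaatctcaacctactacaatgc
Among nuclear members, 27 of 85 shared at least 10% of their words with another transcript and 1, Atp5l, more than 50% (84.8%).

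**Figure D1:**
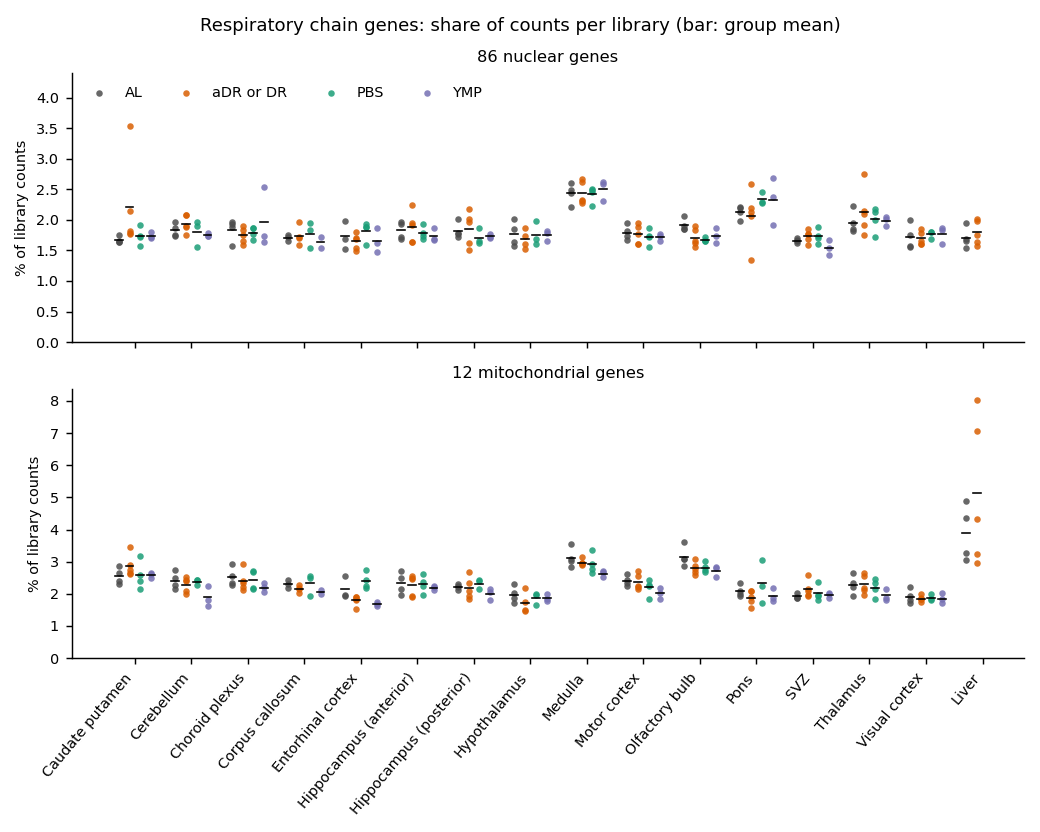
Percent of each library's counts in the 86 nuclear and the 12 mitochondrial members, for the untreated mice and both treated groups of every tissue, with 1 point per library. The mitochondrial share ran from 1.47% to 8.03% of a library's counts, and the liver libraries held its highest values.

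Nuclear members were highest in the lower brainstem. In AL mice the medulla was the region of the highest level for 71 of 86 nuclear members, and in PBS mice for 61 of 86, with the pons next in PBS mice (11 of 86). Levels were compared as the log2 difference of each region from the mean of the 15 regions (TMM-scaled CPM). The median nuclear member stood 0.44 above that mean in medulla in AL and 0.42 in PBS mice, and 0.17 and 0.35 above it in pons. The 4 medulla libraries of AL mice held 2.43% ± 0.165 (SD, n = 4) of their counts in nuclear members, between 2.21% and 2.60%, and those of PBS mice 2.42% ± 0.133 (SD, n = 4). Lowest were the subventricular zone (SVZ) in AL mice, for 29 of 86 members with a median of -0.19, and the olfactory bulb in PBS mice, for 39 of 86 with a median of -0.20. All 5 complexes shared the medulla peak in AL mice, with median differences of 0.48 for complex I, 0.39 for complex II, 0.36 for complex III, 0.53 for complex IV and 0.43 for complex V. Oligodendrocyte markers were also high there (median 25309 CPM summed, 25891 in pons and 24443 in corpus callosum, where nuclear members stood at -0.06). Neuronal markers summed to 7559 CPM in medulla, 8329 in pons and 9760 in motor cortex. The part of either cell type in the regional levels was not tested.

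Mitochondrial members followed another order. The medulla was again high (0.44 in AL and 0.28 in PBS mice), but the caudate putamen (0.31 and 0.38) and the olfactory bulb (0.35 and 0.17) stood beside it, and the pons did not (-0.12 and -0.01). The hypothalamus was lowest, at -0.35 in AL and -0.33 in PBS mice. The balance between the genomes, the log2 ratio of summed mitochondrial to summed nuclear CPM in a library, therefore ran from a mean of 0.72 in olfactory bulb and 0.61 in caudate putamen to -0.03 in pons in AL mice, and from 0.75 and 0.56 to -0.04 in PBS mice. Across the 15 regions, the nuclear and the mitochondrial median profiles correlated with r = 0.585 in AL and 0.353 in PBS mice. Profiles of the same members in AL females and PBS males, which share no animal, correlated with a median r of 0.847 over nuclear members (0.515 to 0.983) and 0.854 over mitochondrial members. Points of one region share their dissection and libraries, and the regions are not independent samples.

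Differences among regions passed the test for 84 of 86 nuclear and all 12 mitochondrial members in AL mice and for 85 of 86 and 9 of 12 in PBS mice (edgeR quasi-likelihood F test, adjusted p under 0.05). Atp5l missed the threshold in both (adjusted p = 0.0728 and 0.203), Ndufa7 in AL mice, and mt-Atp6, mt-Co3 and mt-Nd4l in PBS mice. Those counts are no larger than the background, since 98% of all genes tested were called in AL and 96% in PBS mice. The median F of nuclear members was 6.59 in AL mice against 13.2 over all genes tested, and 6.60 against 9.93 in PBS mice.

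**Figure D2:**
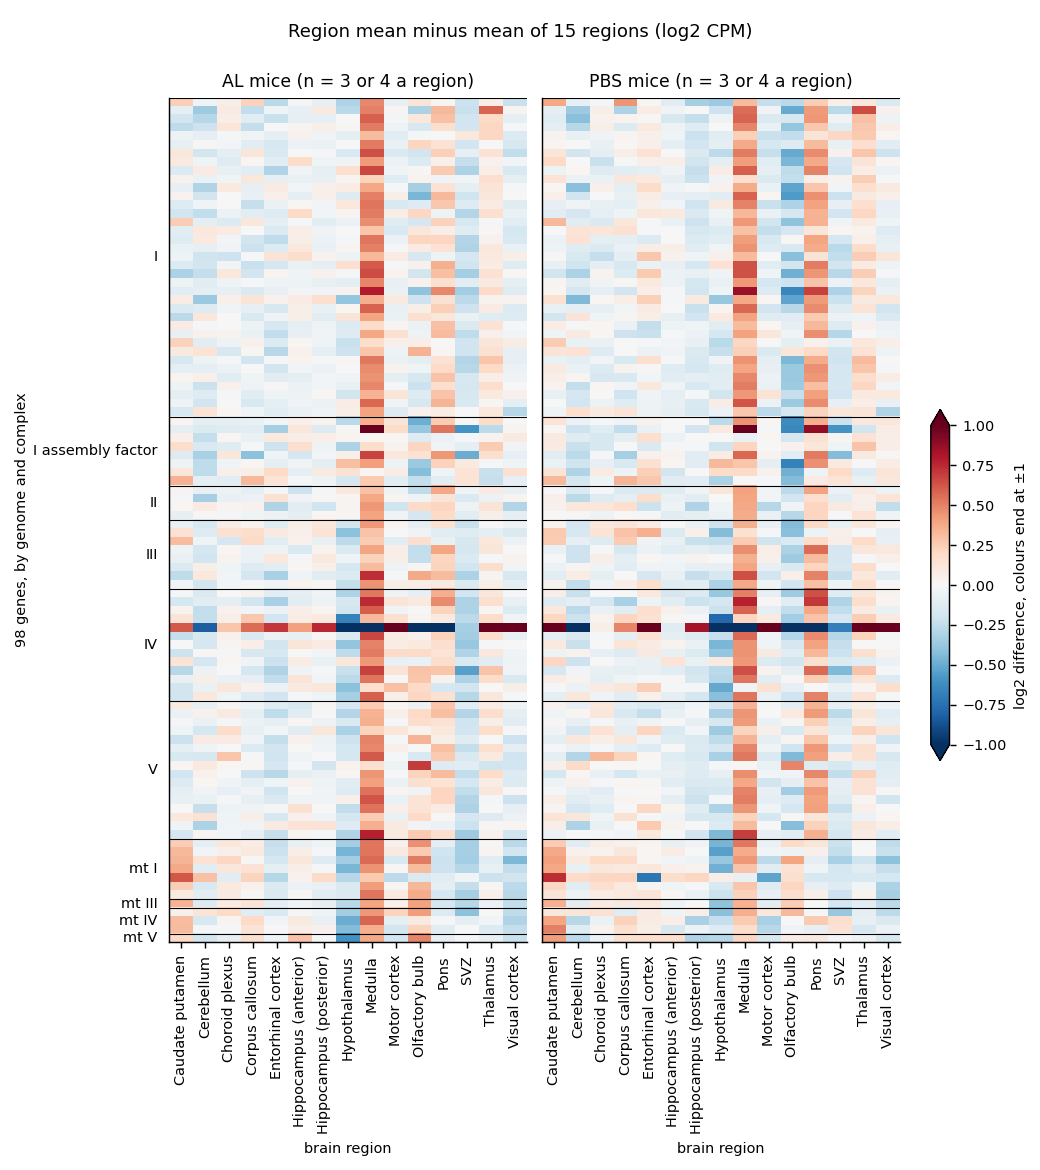
Log2 difference of each of the 98 genes from its mean over 15 brain regions, ordered by complex, in AL mice and in PBS mice (n = 3 or 4 a region), with the colour scale ending at -1 and 1. The medulla column stands out for nearly every nuclear gene in both groups, while the mitochondrial rows at the end are also high in caudate putamen and olfactory bulb.

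Several subunits of well-known role followed the peak in the lower brainstem. The oxidase subunit Cox4i1, which docks onto the catalytic core, averaged 1006 ± 98.7 TMM-scaled CPM (SD, n = 4) in medulla and 566 ± 81.3 in hypothalamus of AL mice. Atp5b averaged 2065 ± 89.0 in medulla and 1324 ± 113 in hypothalamus. The flavoprotein subunit Sdha of complex II was highest in pons, 949 ± 56.0, and lowest in olfactory bulb, 607 ± 18.3. Each of these differences was larger than the SDs of both regions. Uqcrc1, a core protein of complex III, and Atp5a1, the alpha subunit of ATP synthase, were also highest in pons (646 and 1315 CPM). Cox8a departed from this order and was highest in motor cortex of AL mice (497 CPM) and entorhinal cortex of PBS mice (486 CPM). Atp5g2, one of the nuclear genes for the membrane ring subunit of ATP synthase, was highest in olfactory bulb in both groups (85.7 ± 8.30 in AL, n = 4, and 74.0 ± 7.08 in PBS mice, n = 4), where most nuclear members were not.

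A few members had steeper regional patterns than the rest. The assembly factor Ndufaf2 ranged over 1.88 on the log2 scale in AL mice, from 11.7 ± 1.23 TMM-scaled CPM in SVZ to 43.7 ± 6.22 in medulla, and over 1.86 in PBS mice. Ndufb8, an accessory subunit of complex I, ranged from 200.02 ± 14.2 in olfactory bulb to 459 ± 49.3 in medulla of AL mice and from 165 ± 6.00 to 474 ± 44.5 in PBS mice. Single medulla libraries of AL mice held 409, 451, 465 and 527 CPM of Ndufb8 and the olfactory bulb libraries of these mice 199.8, 201, 217 and 236 CPM, so the regions did not overlap. The oxidase subunit Cox7b ranged over 1.22 on the log2 scale in AL mice (230 ± 21.3 in medulla and 98.1 ± 5.65 in SVZ), the assembly factor Ndufaf5 over 1.18, and Atp5mpl, a small subunit of ATP synthase, over 1.14 in both groups. In PBS mice the complex I subunits Ndufa10 (1.16) and Ndufa9 (1.15) were also among the 6 with the largest range.

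Cox6a2 (chr7:128205435-128206387, minus strand, GRCm38) had the steepest pattern of all members, with a thalamic peak. It encodes the heart and skeletal muscle isoform of cytochrome c oxidase subunit 6A, and Cox6a1 encodes the isoform of other tissues. Thalamus libraries held 49.7, 44.6, 46.0 and 70.3 CPM of Cox6a2 in AL mice, 67.6, 48.3, 53.6, 89.6 and 49.3 in aDR mice, 36.3, 53.6, 56.2 and 59.0 in PBS mice and 37.1, 37.5 and 39.5 in YMP mice. Medulla libraries held 0.302, 0.817, 0.594 and 0.796 CPM in AL mice, and none of the thalamus libraries came near them. Over all libraries of a tissue the median went from 49.5 CPM in thalamus (36.3 to 89.6) to 12.4 in motor cortex, 10.9 in visual cortex, 9.47 in posterior hippocampus and 8.56 in caudate putamen, and to 0.618 in pons. In liver, 5 of 9 libraries had 0 counts and the highest had 0.333 CPM, so no fold is given against liver. The regional difference spanned 5.97 on the log2 scale in AL and 6.83 in PBS mice. Cox6a1 stayed between medians of 183 and 343 CPM in all tissues. The Cox6a2 model shares 70 of its 680 exon bases (10.3%) with Itgad on the opposite strand, whose median was at most 0.701 CPM in every tissue and 0.665 CPM in thalamus.

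**Figure D3:**
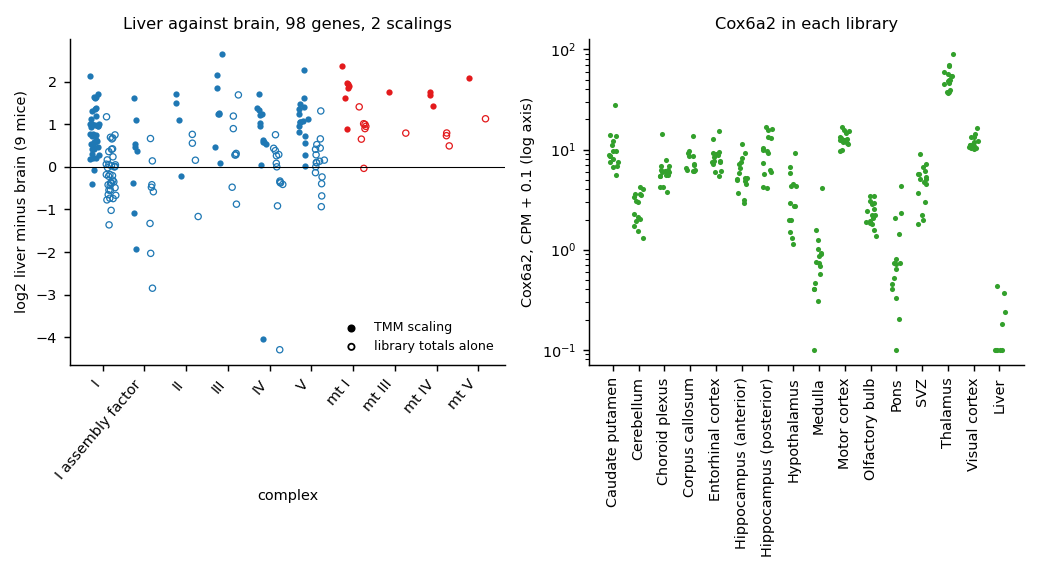
On one side, the log2 difference of liver from brain for members of each complex, with TMM scaling (filled) and with library totals alone (open); on the other, Cox6a2 in each library by tissue on a log axis of CPM + 0.1. The 2 scalings are offset by about the same amount for each gene, and the 16 thalamus libraries lie above those of every other tissue.

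Liver held more mitochondrial-genome transcripts than brain under each of the scalings tried, and for the nuclear members the answer depended on the scaling. Liver libraries of AL mice had 3.89% ± 0.869 (SD, n = 4) of their counts in mitochondrial members and 1.71% ± 0.175 in nuclear members. For each of the 9 mice of the diet experiment, the liver log2 CPM was set against the mean over its brain regions (limma, adjusted p under 0.05). With TMM scaling, all 12 mitochondrial members were called higher in liver, with a median of 1.80, and 74 of 86 nuclear members were called higher and 5 lower, with a median of 0.96. The background was a call for 87.2% of all genes tested, 37% of them higher and 50.1% lower, with a median over all genes of -0.30. With library totals alone, 11 of 12 mitochondrial members were called higher with a median of 0.85, but 27 nuclear members were called higher and 36 lower, with a median of 0.00, and all genes had a median of -1.10. With DESeq2 size factors, 76 nuclear members were called higher and 4 lower, and all 12 mitochondrial members higher. The 10 highest genes took 17.6% to 24.0% of liver counts, and their part in the gap between the scalings was not tested. Both the nuclear and the mitochondrial median lay above the median of all genes under either scaling.

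Some nuclear members stood out in liver under both scalings. Uqcrq, a small subunit of complex III, was higher by 2.64 on the log2 scale with TMM and by 1.69 with totals. In liver the AL libraries held 353, 821, 578 and 422 CPM and the DR libraries 339, 761, 738, 466 and 358 CPM, against 144 to 195 CPM in the thalamus of AL mice. Atp5e, the epsilon subunit of ATP synthase, was higher by 2.27 with TMM and 1.31 with totals, Uqcr11 by 2.15 and 1.19, Ndufa6 of complex I by 2.13 and 1.17, Uqcrb of complex III by 1.85 and 0.90, and Sdhd, the membrane anchor of complex II, by 1.72 and 0.76. At the other end were the assembly factors Ndufaf5 (-1.93 with TMM, -2.85 with totals), Ndufaf7 (-1.08 and -2.03) and Ndufaf3 (-0.38 and -1.33), Ndufs1, the largest subunit of complex I (-0.41 and -1.36), and Sdha (-0.21, not called with TMM, and -1.17). The TMM calls by complex were 34 of 37 higher for complex I, 5 of 8 for its assembly factors with 3 lower, 3 of 4 for complex II, 7 of 8 for complex III, 11 of 13 for complex IV with 1 lower, and 14 of 16 for complex V. Atp5b (0.02), Uqcrc1 (0.08), Cox7a2l (0.04), Ndufv1 (0.22) and Atp5a1 (0.27) missed the threshold with TMM. The mitochondrial members were led by mt-Nd2 (2.36 with TMM, 1.41 with totals), and mt-Nd4l turned from a positive difference to -0.04 with totals.

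Nuclear members did not all move together among the liver libraries. Sdha stood at 185, 186, 208 and 244 CPM in the libraries of DR mice 62 and 64 and AL mice 66 and 68 and between 401 and 551 CPM in the other 5. The same 4 libraries, in that order of mice, had the highest Uqcrq (761, 738, 821 and 578 CPM) and the highest mt-Nd2 (10110, 9113, 7317 and 5561 CPM). Atp5b ranged there from 508 to 629 CPM and in the other 5 from 1040 to 1555 CPM. Nuclear members whose merged exons span at most 1000 bases (n = 19) had a median log2 deviation from the liver mean of 0.05 to 0.40 in these 4 libraries and of -0.35 to -0.05 in the other 5, while members of at least 2000 bases (n = 32) lay between -0.13 and 0.15 in all 9. Merged exons pool all isoforms of a gene, so these classes do not separate members by transcript length. The class of at least 2000 bases holds Atp5l (6443 merged bases, longest coding transcript 544) and Ndufb7 (4522 and 623), and Uqcrq with 1831 merged bases is in neither class. The 4 libraries were 2 of each diet, and the part of transcript length in the liver values was not tested.

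**Figure D4:**
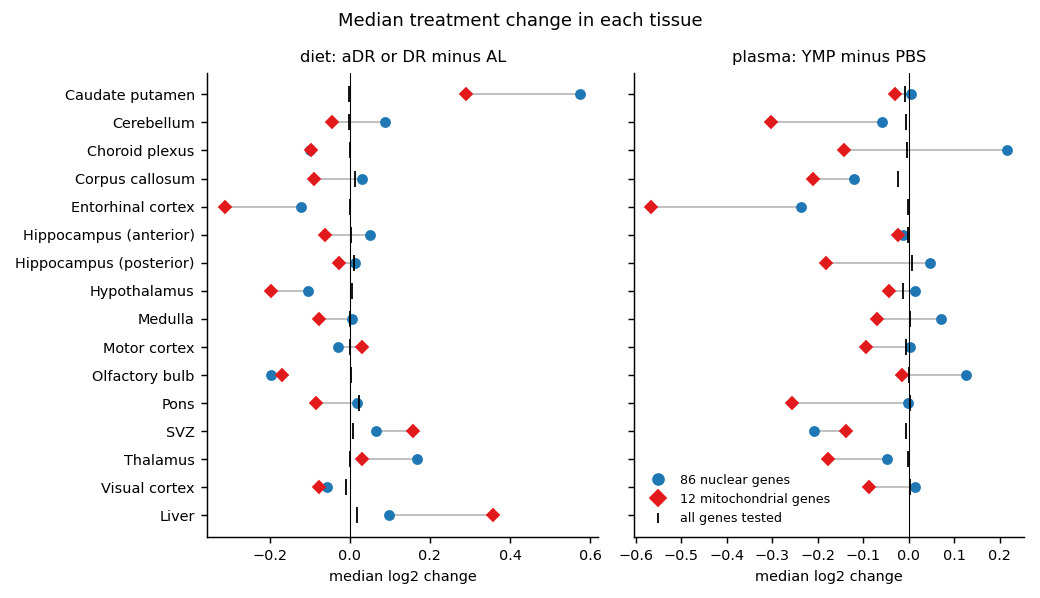
Median log2 change of nuclear members (circles), mitochondrial members (diamonds) and all genes tested (ticks), treated minus control, in each of 16 tissues of the diet and 15 of the plasma experiment. Most medians lie near 0, caudate putamen under the diet lies farthest above it for nuclear members, and entorhinal cortex under plasma lies lowest for mitochondrial members.

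Dietary restriction and young plasma changed no member past the threshold in any single tissue. In 16 tissues under the diet and 15 under plasma, 0 of 98 members were called by edgeR's quasi-likelihood test (adjusted p under 0.05), with 0.0616% and 0.0127% of all tests called as the background. Cox6a2 was too low to be tested in liver, medulla and pons. At an unadjusted p under 0.05, 87 of 1373 nuclear and 16 of 192 mitochondrial tests passed under the diet, against 6.39% of all tests, and 71 of 1288 and 25 of 180 under plasma, against 6.11%. The smallest adjusted p was 0.111 under the diet and 0.227 under plasma. DESeq2 called 11 members under the diet, 10 of them lower in olfactory bulb (0.864% of all genes there) and Ndufaf4 higher in liver (1.9%), and 4 under plasma, all lower in entorhinal cortex (0.0365%). The test of whether an effect differed between brain regions called 0 members in either experiment (0.0128% of all genes called under the diet and 0.786% under plasma). Its smallest adjusted p was 0.0784, for Cox6a2 under plasma, and 1 under the diet, with 3 and 2 members at an unadjusted p under 0.05.

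Across the brain regions of a mouse, the nuclear members under the diet sat just above 0 and the mitochondrial members just below it. Each mouse was given 1 value per gene, its mean log2 CPM after removal of region differences, and these were compared by limma. The median change was 0.02 for nuclear members, with 54 of 86 higher in aDR mice, and -0.06 for mitochondrial members, with 0 of 12 higher, beside -0.01 for all genes tested. Without the caudate putamen library of mouse 64 and the pons library of mouse 67 these medians were 0.00 and -0.06. By mouse, the median deviation of the mitochondrial members was -0.17, 0.05, 0.02, -0.07 and -0.02 in aDR mice. In AL mice it was 0.07, 0.03, -0.0008 and 0.01, so the groups overlapped. No member was called (144 of 15616 genes tested, 0.922%, were called), and 8 nuclear members and 1 mitochondrial member had an unadjusted p under 0.05 (16.1% of all genes). By complex, 25 of 37 members of complex I were higher, 4 of 4 of complex II, 4 of 8 of complex III, 8 of 13 of complex IV and 11 of 16 of complex V, but 2 of 8 assembly factors. The standard error of a change had a median of 0.04 over nuclear and 0.05 over mitochondrial members. Leaving out 1 mouse turned mt-Co1, near 0 in any case, to at most 0.01 (without mouse 61, 63, 65, 66 or 67) and mt-Atp6 to 0.01 (without mouse 68, and 0.02 in the voom fit with the mouse as a block).

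Among nuclear members the largest values under the diet were those of complex I subunits Ndufb9 (0.10), Ndufb4 (0.09) and Ndufs3 (0.09) and of Sdhb (0.08), the iron-sulfur subunit of complex II. Atp5a1 was higher by 0.08 (SE 0.032, limma adjusted p = 0.253) and stood higher in 15 of 15 regions. The lowest were Ndufaf2 (-0.14), Atp5mpl (-0.08), Ndufb2 (-0.08) and Ndufb1-ps (-0.07). Ndufb1-ps is counted in complex I by its name, but the annotation lists it as a long noncoding RNA of a bidirectional promoter. It shares 12.75% of its exon bases with Cpsf2 on the opposite strand. The mouse values of Ndufaf2 were 3.95, 4.12, 4.07, 4.04 and 4.10 log2 CPM in aDR and 4.19, 4.19, 4.21 and 4.21 in AL mice, which did not overlap (limma adjusted p = 0.104, lower in 14 of 15 regions). Of the mitochondrial members, mt-Nd4l had the lowest value (-0.17, SE 0.126), with groups that overlapped. Next was mt-Nd2, with 10.65, 10.92, 10.85, 10.83 and 10.92 in aDR and 11.01, 10.99, 10.99 and 11.02 in AL mice. The change of mt-Nd2, -0.17 (SE 0.054, limma adjusted p = 0.182), had the same sign in 13 of 15 regions. Groups that did not overlap were found for 2 of 86 nuclear members, Ndufaf2 and Ndufaf5, and 1 of 12 mitochondrial members, below or near the 8.3% of all genes tested. The fit of single libraries with the mouse as a block (voom) called 3 members under the diet, beside 9.44% of all genes: Atp5a1 higher (adjusted p = 0.00417), Uqcrc2 higher (adjusted p = 0.0457) and mt-Nd2 lower (adjusted p = 0.0258).

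Under plasma most mitochondrial members had lower means in YMP mice across the brain, none of them past the threshold. Their median change was -0.11, with 11 of 12 lower in YMP mice, and that of the nuclear members was -0.01, with 57 of 86 lower, beside 0.00 for all genes tested. In each of the 15 regions the mitochondrial median was below 0 (from -0.57 to -0.02), and in 14 it was below the nuclear median. No member was called, as was no gene at all (0% of 15768). The median deviation of the 12 mitochondrial members was -0.08, -0.08 and -0.09 in the 3 YMP mice and 0.07, 0.00, 0.05 and 0.13 in the 4 PBS mice. For nuclear members the same values were -0.01, -0.03 and 0.03 in YMP and 0.08, 0.00, 0.06 and -0.12 in PBS mice, with PBS mouse 84 the lowest of all. The mitochondrial medians of the 7 mice did not overlap between groups, and the nuclear medians did.

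The 3 lowest of these changes belonged to subunits of complex I. Values of mt-Nd6 were 8.60, 8.63 and 8.67 log2 CPM in YMP and 8.89, 8.79, 8.90 and 8.82 in PBS mice, a change of -0.22 (SE 0.046, limma adjusted p = 0.340). For mt-Nd5 they were 10.68, 10.72 and 10.69 against 10.88, 10.82, 10.89 and 10.98, a change of -0.20 (SE 0.048, limma adjusted p = 0.386). For mt-Nd1 they were 11.62, 11.62 and 11.59 against 11.80, 11.69, 11.77 and 11.97, a change of -0.20 (SE 0.067, limma adjusted p = 0.518). Each of these 3 genes was lower in YMP mice in 15 of 15 regions, and none of them overlapped between groups. The remaining changes were -0.15 for mt-Nd2, -0.19 for mt-Atp6, -0.12 for mt-Co1, -0.10 for mt-Cytb, -0.10 for mt-Co3, -0.09 for mt-Nd3, -0.09 for mt-Nd4, -0.05 for mt-Co2 and 0.08 for mt-Nd4l. An unadjusted p under 0.05 was found for 4 of 12 mitochondrial and 0 of 86 nuclear members (8.09% of all genes). Mouse values did not overlap for 7 of 12 mitochondrial members (58.3%), all lower in YMP mice, against 10.1% of all genes tested and 1 of 86 nuclear members, Sdhc. Mitochondrial members cut from shared long transcripts are not independent of one another, and neither are regions of the same mice. Leaving out 1 mouse at a time moved mt-Nd6 between -0.23 and -0.20, mt-Nd5 between -0.22 and -0.17 and mt-Nd1 between -0.23 and -0.14. Others were less steady: mt-Nd4l turned to -0.08 without YMP mouse 77 and to -0.06 without PBS mouse 84. Without mouse 84, mt-Atp6 was -0.05, mt-Co2 -0.02 and mt-Cytb -0.07. The change of mt-Co2 was also -0.03 without PBS mouse 72 and -0.10 without PBS mouse 76, and that of mt-Co3 was -0.06 without YMP mouse 73 and -0.18 without YMP mouse 77. The voom fit with the mouse as a block called these 3 genes lower, beside 3.08% of all genes (adjusted p = 0.0208 for mt-Nd6, 0.00252 for mt-Nd5 and 0.0152 for mt-Nd1).

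Under plasma most nuclear members of each complex had slightly lower means in YMP mice, none with an unadjusted p under 0.05. Higher values were found for 14 of 37 members of complex I, 6 of 8 assembly factors, 1 of 4 of complex II, 3 of 8 of complex III, 2 of 13 of complex IV and 3 of 16 of complex V. The lowest were Cox7b (-0.10), Sdhc (-0.10), a membrane anchor of complex II, Uqcrh (-0.09), the hinge protein of complex III, and Atp5g1 (-0.08), another ring subunit gene of ATP synthase. The highest were the assembly factor Ndufaf4 (0.06), Cox6a2 (0.04), Ndufs7 (0.04) and the assembly factor Ndufaf7 (0.04). Without PBS mouse 84 these were 0.01 for Ndufaf4, -0.01 for Ndufs7 and 0.01 for Ndufaf7. Without YMP mouse 81 Ndufaf4 was 0.03, and without YMP mouse 73 Ndufaf7 was 0.02. Cox6a2 turned to -0.01 without PBS mouse 80 or without choroid plexus and corpus callosum, and to -0.18 in the voom fit with the mouse as a block. None of the nuclear members had a limma adjusted p below 0.619.

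The entorhinal cortex showed the lowest mitochondrial values under plasma. For mt-Nd1 the PBS libraries held 4172, 3595, 3286 and 3473 CPM and the YMP libraries 2310, 2427 and 2620 CPM. For mt-Co1 they held 9832, 7471, 7450 and 6964 CPM against 5549, 5530 and 5474.5 CPM, and for mt-Nd6 531, 572, 484 and 416 against 290.5, 320 and 354 CPM. The groups did not overlap for these 3 genes, nor for mt-Cytb (5538 to 6323 CPM against 4077 to 4630 CPM) and mt-Nd5 (1779 to 2055 against 1322 to 1439 CPM). By TMM-scaled values, 10 of 12 mitochondrial members (83.3%) did not overlap, all lower in YMP mice, as did 4 of 86 nuclear members, against 6.63% of all genes. The median change was -0.57 for mitochondrial members, 11 of 12 with an unadjusted p under 0.05, and -0.24 for nuclear members, 18 of 86 (4.69% of all genes). No adjusted p was below 0.910, and DESeq2 called mt-Nd1, mt-Nd5, mt-Nd6 and mt-Cytb lower. Without 1 mouse at a time the mitochondrial median stayed between -0.62 and -0.51. Summed neuronal markers were 5963 to 8206 CPM in PBS and 5761 to 6795 CPM in YMP libraries and oligodendrocyte markers 1031 to 4400 and 1135 to 1963 CPM, and their part in the result was not tested. The balance of the genomes was -0.09 to 0.195 in YMP and 0.25 to 0.50 in PBS libraries, 1 of 2 tissues among 31 in which it did not overlap, the other being olfactory bulb under plasma (0.60 to 0.69 against 0.70 to 0.81). Under the diet, mitochondrial members in entorhinal cortex also had a median of -0.31, with 12 of 12 lower and 5 at an unadjusted p under 0.05 (4.19% of all genes), in other animals. This median was less steady, between -0.44 and -0.10 without 1 mouse at a time. The 3 AL libraries held 1.93%, 1.96% and 2.55% of their counts in mitochondrial members, and the aDR libraries 1.51% to 1.92%.

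In the olfactory bulb, members of both genomes had lower means in aDR mice, none past the threshold of edgeR. The median change was -0.20 for nuclear and -0.17 for mitochondrial members, with 83 of 86 and 12 of 12 lower, and 54 and 6 had an unadjusted p under 0.05, all lower, against 13.7% of all genes. Uqcrq stood at 196, 171, 159 and 167 CPM in AL and 131, 151, 128, 125 and 157 CPM in aDR libraries, with no overlap (-0.32, SE 0.080, edgeR adjusted p = 0.159). Sdha had 644, 636, 628 and 683 CPM against 693, 645, 675, 662 and 688 CPM and overlapped. DESeq2 called Ndufs5, Cox7a2, Uqcr11, Uqcrq, Ndufb1-ps, Ndufb10, Atp5md, Ndufa1, mt-Nd2 and mt-Nd3 lower. The deviation of members with short gene models lay between 0.06 and 0.33 in AL libraries and between -0.31 and 0.10 in aDR libraries, and that of long ones between 0.05 and 0.15 and between -0.17 and 0.06, so the libraries of aDR mice 61, 64 and 65 were low in both. Neuronal markers summed to 6161 to 6536 CPM in AL and 6153 to 6889 CPM in aDR libraries. Leaving out 1 mouse at a time kept the nuclear median between -0.25 and -0.16. Under plasma the nuclear members of olfactory bulb had a median of 0.12, with 81 of 86 higher and 29 at an unadjusted p under 0.05 (8.84% of all genes), and a median between 0.04 and 0.16 without 1 mouse at a time.

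Medians also lay away from 0 in some other tissues. A single library stood apart in caudate putamen under the diet, and plexus epithelium markers differed between groups in SVZ under plasma. In caudate putamen under the diet the nuclear median was 0.58, with 83 of 86 higher. But 1 aDR library (mouse 64) held 3.54% of its counts in nuclear members and the other 4 between 1.77% and 2.14%, and without it the median was 0.19. Even the lowest aDR share lay above the AL shares (1.63% to 1.74%). Library values did not overlap for 29 of 86 nuclear members (33.7%), all higher in aDR mice, against 4.43% of all genes. An unadjusted p under 0.05 was found for 13 (7.27% of all genes), and for 38 without the library of mouse 64. The library of mouse 64 had a median deviation of 1.29 for members with short and 0.63 for those with long gene models. It held 504 CPM of Uqcrq against 139 to 206 CPM in the other 8. In liver under the diet, 12 of 12 mitochondrial members were higher in DR mice with a median of 0.36, but leaving out 1 mouse moved it between 0.11 and 0.53. The mt-Nd2 values were 3221, 7317, 5561 and 4044 CPM in AL and 3221, 10110, 9113, 4836 and 3510 CPM in DR libraries and overlapped. In SVZ under plasma the nuclear median was -0.21, where plexus epithelium markers summed to between 2761 and 19374 CPM in PBS and between 8.72 and 16.8 CPM in YMP libraries, and their part in the result was not tested. Cerebellum under plasma had a mitochondrial median of -0.30 with 6 of 12 at an unadjusted p under 0.05 (10.3% of all genes). Without 1 mouse at a time it stayed between -0.43 and -0.22. Thalamus under the diet had a nuclear median of 0.17 with 85 of 86 higher and 0 at that level (4.38% of all genes), and between 0.03 and 0.28 without 1 mouse at a time.

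The assembly factor Ndufaf4 was the member nearest to a change in liver. Its liver libraries held 22.4, 34.5, 33.1 and 27.6 CPM in AL and 32.7, 52.9, 57.5, 50.8 and 47.2 CPM in DR mice, and the DR library of mouse 61 alone lay within the AL range. The change was 0.78 (SE 0.186, edgeR adjusted p = 0.133), and DESeq2 called it higher. The difference between the diet effects in liver and brain was 0.78 (SE 0.191, limma adjusted p = 0.221), with 0.74 in liver and -0.05 in brain. No member was called in that comparison (0.0792% of all genes were). The median difference was 0.33 over mitochondrial members, 12 of 12 positive, and 0.05 over nuclear members, 60 of 85 positive.

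Genes that serve the chain from outside were described by 5 lists. Under the diet across brain regions, Idh2, the mitochondrial isocitrate dehydrogenase that makes NADPH, rose by 0.24 (limma adjusted p = 0.0494, higher in 15 of 15 regions), and Mgme1, an exonuclease of mitochondrial DNA replication, fell by 0.19 (adjusted p = 0.0311, lower in 13 of 15). The call on Idh2 was lost when any 1 of 8 mice was left out, all but mouse 65, and the one on Mgme1 without mouse 62, 63, 65, 66, 68 or 69, with adjusted p up to 0.151 and 0.108. Idh2 also missed the threshold under other scalings and filters, with an adjusted p of up to 0.0829. No other listed gene was called. The list of cytochrome c, carriers and uncoupling proteins had 26 of 30 genes higher with a median of 0.04, led by the uncoupling protein Ucp2 (0.39, adjusted p = 0.183) and Coq10b (0.23, adjusted p = 0.0584), with Coq4 (-0.09) and Slc25a14 (-0.05) lowest. The tricarboxylic acid cycle list had 11 of 18 higher (median 0.02), with Mdh2 at 0.09. The assembly factors outside the name rule had 17 of 41 higher (-0.02), with Surf1, a complex IV factor, at 0.14 (adjusted p = 0.0622) and Bcs1l, a complex III factor, at -0.20 (adjusted p = 0.129). Biogenesis regulators had 10 of 18 higher (0.01), between Ppard (0.13) and Esrrg (-0.12), and factors of mitochondrial DNA and RNA 14 of 30 (0.00). Under plasma 0 listed genes were called, and the counts higher were 16 of 30 carriers, 7 of 18 of the cycle, 23 of 41 assembly factors, 10 of 18 regulators and 20 of 30 DNA and RNA factors, with medians between 0.00 and 0.02 and Ucp2 at -0.43 (adjusted p = 0.340). In liver against brain with TMM, 12 of 31 carriers were called higher and 13 lower. The calls were 6 higher and 8 lower for 18 genes of the cycle and 18 and 10 for 41 assembly factors. They were 6 and 6 for 18 regulators and 17 and 5 for 30 DNA and RNA factors. As the background, 37% of all genes tested were called higher and 50.1% lower. Calls of nuclear members depended on the scaling, and those of the lists with library totals alone are not given here.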

How the data were processed

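The deposited table gave raw counts of reads per gene, which the authors made with Trim Galore 0.3.7 and STAR 2.5.3a on GRCm38, per the submitters' processing notes, which also name DESeq2. Per the labels' protocols, RNA was isolated with RNeasy kits, copied by Smart-Seq2 and tagmented with Nextera XT, unstranded. The counting step and its treatment of reads that fit several places are not given in the sources used here. CPM were computed from those counts. The members and lists described here were chosen with earlier results of these data known.

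Within each tissue, treated and control libraries were compared by edgeR 4.0.16 (quasi-likelihood test, TMM scaling, genes kept by filterByExpr at 10 counts, 15 in total). Across brain regions, log2 CPM (prior count 2) was fitted on region and mouse, and the mouse values were compared by limma 3.58.1, as were liver minus brain values. Region differences and region by treatment terms had edgeR F tests with no term for the mouse, so libraries of 1 mouse were treated as independent. All p-values are Benjamini-Hochberg adjusted over all genes tested, called at 0.05, and two-sided, with F tests covering any difference. DESeq2 1.42.0, other scalings and filters, and leaving out each mouse were alternatives. R 4.3.3 was used, and the fits were tested on simulated data. Where changes in log2 are given for across-region values, they are on the log2 scale with the prior count and understate changes of low genes.

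Mouse numbers in the labels link the libraries of an animal; treated and control mice are different animals, so no treated library is paired with a control. Deviations from the group means correlated within a mouse with a median r of 0.0519 (aDR), 0.0323 (AL), 0.0476 (YMP) and 0.114 (PBS), against -0.0106, -0.0104, -0.0228 and -0.0371 between mice. Genes named are every mitochondrial member, every called member, the 4 nuclear members with the largest rise and the 4 with the largest fall per experiment, the 6 with the largest region range in each control group, the 6 highest and 6 lowest in liver, preset subunits of known role, and of each list the called genes and up to 2 at either end. Others are named where a count of 5 or fewer or an alternative singles them out after values were seen. Gene positions and exon overlaps came from GENCODE vM21 (GRCm38), with 97 members matched to 1 gene each, and promoters from RefSeq. In the lists, Prorp, Fastkd4 and Pc had no row in the table.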

Additional observations from a re-analysis of the deposited data

Results flagged for a closer look

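Single libraries far from the rest of their group were looked for in every tissue and treatment group of 4 or 5 libraries by 3 measures, the nuclear and the mitochondrial share of counts and the balance of mitochondrial to nuclear members. Of these 117 tests 7 marked a library, where chance marks about 1 in 20. The caudate putamen library of aDR mouse 64 held 3.54% of its counts in nuclear members and the other 4 between 1.77% and 2.14%. The entorhinal cortex library of PBS mouse 84 held 1.59% and its group mates 1.88% to 1.94%, and the medulla library of PBS mouse 76 held 2.22% beside 2.46% to 2.502%. The medulla library of aDR mouse 62 held 3.14% in mitochondrial members and the others 2.90% to 2.95%. The balance was 0.0708 in the thalamus of AL mouse 68 beside 0.252 to 0.280, 0.203 in the visual cortex of AL mouse 63 beside 0.127 to 0.134, and -0.0907 in the visual cortex of aDR mouse 61 beside 0.143 to 0.217.

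The plasma effect on Ucp2, an uncoupling protein, differed between brain regions (edgeR F = 3.69, adjusted p = 0.0216), and its mean across regions was lower by 0.43 on the log2 scale in YMP mice without passing the test (limma adjusted p = 0.340). Ucp2 is not a member of the respiratory chain as chosen here.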

How the results depend on the processing

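The 0 calls of members within tissues became 11 under the diet and 4 under plasma with DESeq2. Leaving out each mouse in turn gave 0 to 1 under the diet (Ndufaf4 in liver without mouse 61, beside 0.462% of all genes there). Under plasma it gave 0 to 10. Without mouse 77 these were 5 in olfactory bulb (1.36% of all genes there). Without mouse 84 they were 7 in cerebellum (0.825% of all genes) and 3 in corpus callosum (4.82%). Across brain regions, fits of all libraries with the mouse as a replicate block called 3 members under the diet and 3 under plasma (9.44% and 3.08% of all genes). With no replicate block they called 8 in each. The liver against brain diet effect, fitted with no replicate block, had 2 members called. The share of all genes called in the fits with no replicate block is not given here, so these counts stand without a background. The balance did not overlap in 2 of 31 tissues, in 1 with mean log2 CPM as the measure, and in 2 to 6 with each mouse left out in turn (4 without mouse 73 and 6 without mouse 80). In the liver level, mt-Nd4l turned to -0.0353 with library totals alone. The cause was not tested for any of these. The other 201 values that answer a comparison stayed on their side of the threshold, within 1.5 times or within 1 SD. Of values for single genes or tissues, 1075 stayed so, though some that were not called changed sign, 17 became stronger, 27 weaker, 4 moved (Cox6a2 under plasma among them) and 1 reversed, that of mt-Nd4l in liver. With 3 to 5 mice a group and 2 libraries in 1 group, small changes could go unseen, and depth limits Cox6a2 in liver, medulla and pons. The leave-one-out fits of groups that keep 1 library assume that it varies like the others. Removing the 2 libraries that stood apart, and scaling by library totals alone, were chosen after seeing the data.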
